A study of Homo sapiens with 6 samples.

Results

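AP-1 is a dimeric transcription factor built from proteins of the FOS family (FOS, FOSB, FOSL1, FOSL2) and the JUN family (JUN, JUNB, JUND), which join through leucine zippers and bind DNA through an adjoining basic region. FOS, EGR1, ATF3 and IER3 are immediate early genes. They are switched on within minutes of growth factor or stress signals, largely through ERK and the serum response factor, without new protein synthesis. In mammary epithelial cells, EGF is one such signal, and AP-1 is known for driving genes of growth, invasion and wound repair. EGR1 is a zinc finger factor, ATF3 a stress-responsive relative of AP-1 that pairs with JUN proteins, and IER3 a survival regulator that is not a DNA-binding factor.

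These 10 genes were chosen by name, with earlier results of these data known. Every probe set that the platform annotation gives to 1 of them alone was taken. This gave 24 of the 54613 probe sets on the array that are not controls, and 10 of the 19775 genes measured. The samples were MCF-10A cells, an immortalized, non-transformed human mammary epithelial line. One group was infected with a retrovirus carrying Crb3 (n = 3) and the other with the pNG vector control (n = 3), and the labels give puromycin as the selection. The study's methods name both pNG and pLNCX2 as vectors for CRB3, and G418 beside puromycin for CRB3-expressing cells that received a second virus, so the vector behind the CRB3-expressing arrays is not settled and a difference in vector or selection cannot be told apart from CRB3. Both grew in the normal medium of this line, which contains EGF, and RNA was taken from proliferating monolayers at 70% confluence. No response in time was sampled, and the study's methods do not give the time since the last change of medium. A difference in feeding or handling between the groups therefore cannot be told apart from CRB3. The construct encodes human CRB3 with an amino-terminal myc tag, and neither the promoter that drives it nor whether the cells were 1 clone is given in the sources used here. RNA was isolated in triplicate, and whether this means separate infections is not given, so the p-values cover the spread between these samples, which may be technical.

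The values are log2 values that the authors obtained with Robust Multichip Average (RMA), 1 per probe set and array, and a difference of 1 is a 2-fold change. They carry no detection calls, so levels under 6 are not shown to be above background. Levels of different probe sets are not comparable with each other, and every comparison below is between the groups on the same probe set. In RNA from a whole culture, fewer cells expressing a gene and less RNA per cell cannot be told apart. A probe set was called higher or lower where limma's adjusted p was under 0.05 over all probe sets and the fold change was above 1.5, a log2 fold change of 0.58. As a check of the labels, the CRB3 transcript differed 20.1-fold between the groups, with the higher level where CRB3 was expressed from the vector. KRT5 (13.62 in vector control cells), EPCAM (11.83) and CDH1 (10.86) were among the bright epithelial markers, and KRT19 (5.13) was dim. Of the 11 epithelial markers measured, 3 were called higher in CRB3-expressing cells and 0 lower, against 1.43% and 0.465% of all genes. The 3 were KRT14 (3.57-fold), CDH1 (2.15-fold) and KRT8 (2.12-fold). By limma's adjusted p alone, 6 were higher and 1 lower, VIM, with a log2 fold change of -0.39. VIM is a mesenchymal filament gene that this list and its means below include, so its fall is not that of an epithelial gene. The mean log2 value over the 11 epithelial markers measured ran from 11.11 to 11.13 on the vector control arrays and from 11.48 to 11.57 on the CRB3-expressing arrays. It ran from 5.72 to 5.83 on the vector control arrays and from 5.64 to 5.69 on the CRB3-expressing arrays over 7 fibroblast markers, of which DCN was lower. On all 6 arrays it stayed between 5.14 and 5.34 over 3 leukocyte markers and between 5.14 and 5.27 over 4 endothelial markers, none of which was called. The part of the epithelial shift in the results below was not tested. Vector control replicate 1 stood apart in the hybridization controls (mean log2 value 11.33, against 10.89 to 11.08 on the other arrays), and results are given without it where it mattered.

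The promoter windows of 8 of the 10 genes were found in the RefSeq table of the build GRCh38.p14 (9 windows, since ATF3 has 2 start sites there). Windows of FOSL1 and IER3 were not used. The 250 bases before the start site are printed for FOS and EGR1, whose transcripts were lower in CRB3-expressing cells, for FOSL2, whose transcript was higher, and for FOSB, whose groups overlapped. Capitals mark the CArG box, which the serum response factor binds, and TGACGT on either strand, the core of the cAMP response element.
FOS, chr14:75278578-75278827, plus strand: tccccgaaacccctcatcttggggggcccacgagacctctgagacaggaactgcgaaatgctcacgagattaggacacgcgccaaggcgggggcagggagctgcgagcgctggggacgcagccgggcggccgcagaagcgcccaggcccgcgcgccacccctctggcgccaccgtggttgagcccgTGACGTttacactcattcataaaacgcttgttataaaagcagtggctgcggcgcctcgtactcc
FOSB, chr19:45467746-45467995, plus strand: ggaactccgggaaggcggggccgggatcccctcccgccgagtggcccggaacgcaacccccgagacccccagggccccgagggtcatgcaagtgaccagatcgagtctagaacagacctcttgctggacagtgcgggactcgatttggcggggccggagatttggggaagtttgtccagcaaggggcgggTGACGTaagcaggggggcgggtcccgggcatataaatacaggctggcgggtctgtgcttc
FOSL2, chr2:28392608-28392857, plus strand: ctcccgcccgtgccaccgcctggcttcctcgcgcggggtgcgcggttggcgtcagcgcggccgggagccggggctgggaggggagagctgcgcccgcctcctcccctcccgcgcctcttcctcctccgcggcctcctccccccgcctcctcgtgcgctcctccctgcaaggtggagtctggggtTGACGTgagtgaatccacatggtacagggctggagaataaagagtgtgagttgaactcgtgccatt
EGR1, chr5:138465229-138465478, plus strand: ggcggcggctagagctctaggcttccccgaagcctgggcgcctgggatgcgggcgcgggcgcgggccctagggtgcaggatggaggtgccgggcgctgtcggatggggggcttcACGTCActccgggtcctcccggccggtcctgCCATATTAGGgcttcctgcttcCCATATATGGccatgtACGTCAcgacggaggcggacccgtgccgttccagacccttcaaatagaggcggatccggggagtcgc

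In FOS the core lay 64 to 59 bases before the start site, in FOSB 60 to 55 and in FOSL2 66 to 61. EGR1 held it at 67 to 62 bases and at 136 to 131 bases before the start, and JUND held it as well. So 5 of the 8 genes had the core, against 7.09% of 34943 windows of the same length. The core was added to the search after these windows were seen, and genes that moved in opposite directions held it. The CArG box was found in EGR1 alone among the 8 genes, as CCATATTAGG and CCATATATGG at 105 to 96 and 83 to 74 bases before the start, and in 1.16% of all windows. The full cAMP response element, TGACGTCA, which contains the core, was found in JUND (1.63% of all windows). The AP-1 site, TGANTCA, and the EGR1 site, GCGTGGGCG, were searched on both strands and were in none of the 9 windows (6.59% and 0.721% of all windows). Only matches to these letters, with N as any base, were counted, so variants of the sites would be missed. The search covered only the 250 bases before each start site, so sites further upstream, in FOS as in the others, would be missed. These matches describe the letters of the windows and were not tested for binding.

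Over the 24 probe sets, 1 was called higher (ATF3) and 1 lower (FOS), against 0.948% higher and 0.363% lower among all probe sets. Counted by the brightest probe set of each gene, 0 were called higher and 1 lower, against 1.43% higher and 0.465% lower among all genes. By limma's adjusted p alone, 2 genes were higher (FOSL2 and ATF3, against 3.37% of all genes) and 2 lower (FOS and EGR1, against 1.77%), which is 4 of 10 against 5.14% of all genes in either direction. Without the adjustment, 4 were higher and 3 lower at a p under 0.05, against 10.4% higher and 8.39% lower among all genes. The groups did not overlap in 7 of the 10 genes, against 26.6% of all genes and 38.3% of the 9703 genes with a mean log2 value of at least 7. The log2 fold changes of the 10 genes ran from -0.87 to 0.42 with a median of -0.0062, and 5 were positive and 5 negative. The median size of the change, regardless of direction, was 0.27 on the log2 scale, against 0.081 over all genes and 0.090 over those with a mean of at least 7. Since the 10 genes were chosen with earlier results of these data known, these shares describe them and are no test of the set. The spread was ordinary, with a median SD within a group of 0.080 (CRB3-expressing) and 0.090 (vector control) over the 24 probe sets, against 0.084 and 0.087 over all.

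**Figure D1:**
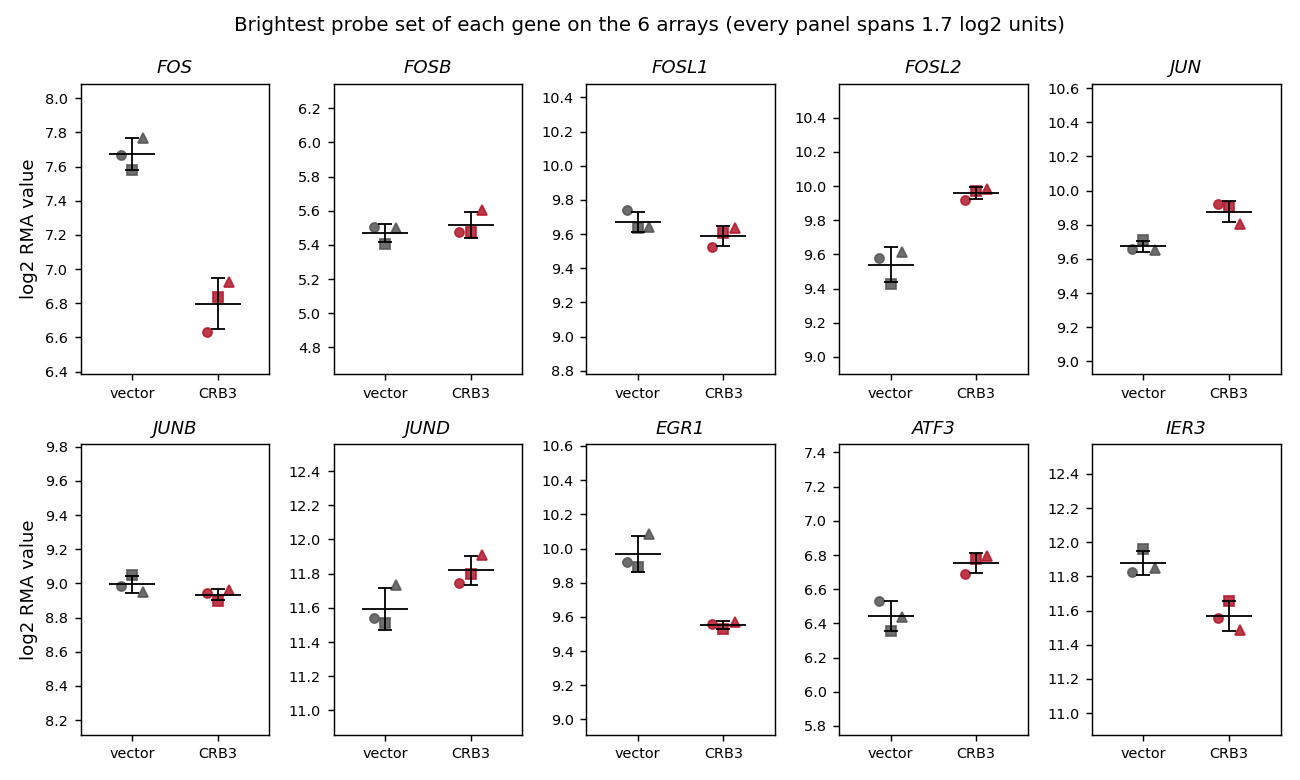
Log2 RMA value (y axis) of the brightest probe set of each of the 10 genes by array, with vector control in grey and CRB3-expressing in red. Symbols are replicates 1 (circle), 2 (square) and 3 (triangle), bars are the mean and SD (n = 3), and all panels have the same height in log2 units. FOS (7.67 against 6.80) and EGR1 are lower in CRB3-expressing cells and FOSL2 and ATF3 higher by adjusted p, the groups of IER3, JUN and JUND do not overlap but missed that threshold, and those of FOSB, FOSL1 and JUNB overlap.

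FOS, the founding FOS family member and a short-lived product of ERK signalling, was the family member that fell. Its log2 values were 7.67, 7.58 and 7.77 on the vector control arrays and 6.63, 6.84 and 6.92 on the CRB3-expressing arrays. Each CRB3-expressing array lay below each vector control array. This is a 1.83-fold lower level, with a log2 fold change of -0.87 (SE 0.089, 95% confidence interval -1.08 to -0.67, limma adjusted p = 0.000726). The call held with any 1 array left out, with log2 fold changes between -0.94 and -0.79. Only 1 probe set measures FOS, so no second one can be set beside it.

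FOSB, another FOS family member that growth factors induce, did not pass the test. Its values were 5.51, 5.41 and 5.50 on the vector control arrays and 5.48, 5.47 and 5.60 on the CRB3-expressing arrays, all under 6. Its log2 fold change was 0.048 (95% confidence interval -0.10 to 0.20, limma adjusted p = 0.787), and a probe set this dim may understate a change.

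FOSL1, or FRA-1, is a FOS family member with no transactivation domain of the FOS kind and a sustained product of ERK signalling. It read 9.74, 9.64 and 9.64 on the vector control arrays and 9.53, 9.61 and 9.64 on the CRB3-expressing arrays. The groups overlapped, and the log2 fold change was -0.082 (95% confidence interval -0.23 to 0.066, limma adjusted p = 0.598). This interval lies within the 1.5-fold threshold on either side.

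FOSL2, or FRA-2, was higher in CRB3-expressing cells, by less than the fold threshold. Its brightest probe set read 9.58, 9.43 and 9.62 on the vector control arrays and 9.92, 9.97 and 9.98 on the CRB3-expressing arrays. The groups did not overlap. A 1.34-fold difference resulted, with a log2 fold change of 0.42 (SE 0.070, limma adjusted p = 0.0123). All 5 FOSL2 probe sets were higher, by 0.19 to 0.44 on the log2 scale, and in none of them did the groups overlap. The second brightest differed by 0.44 on the log2 scale (limma adjusted p = 0.0332), and the other 3 had adjusted p-values between 0.0738 and 0.238 from limma. The brightest missed the threshold without CRB3-expressing replicate 2 (limma adjusted p = 0.0547) or replicate 3 (0.0534), and the second brightest with any 1 array left out (0.0525 to 0.105). The probe sets read the same RNA and are not separate replicates.

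**Figure D2:**
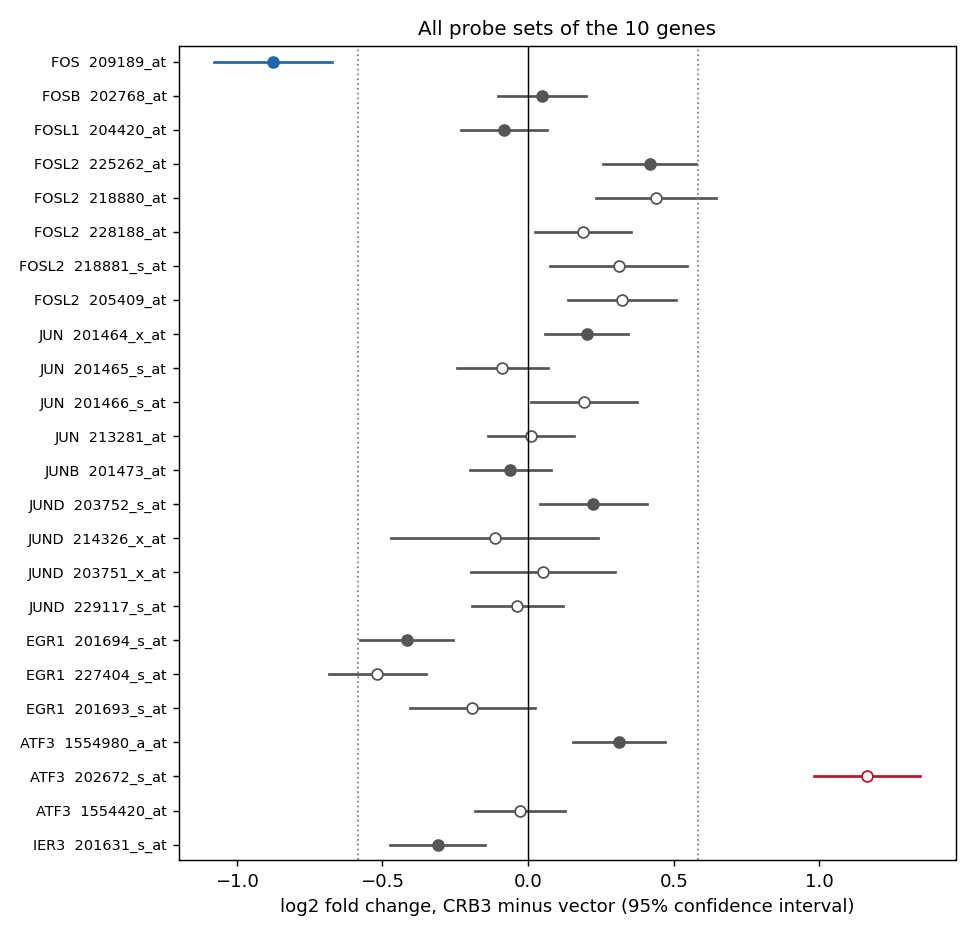
Log2 fold change (x axis, CRB3-expressing minus vector control) of the 24 probe sets (y axis) with 95% confidence intervals from limma (n = 3 arrays per group). Filled circles are the brightest probe set of a gene, open circles the others, blue is called lower, red called higher and grey not called, and dotted lines mark the 1.5-fold threshold. FOS lies at -0.87 and the called ATF3 probe set at 1.16, the 5 FOSL2 probe sets all lie right of 0, and the 3 of EGR1 all lie left of it.

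JUN, the partner that lets FOS proteins bind DNA, gave no single answer. Its brightest probe set read 9.66, 9.71 and 9.65 on the vector control arrays and 9.92, 9.90 and 9.81 on the CRB3-expressing arrays. These groups did not overlap, but the log2 fold change of 0.20 (SE 0.063) did not pass the test (limma adjusted p = 0.142). That probe set ends in _x_at, a suffix that marks probes which can bind other transcripts too. The other 3 had log2 fold changes of -0.088, 0.19 and 0.011, with overlapping groups and adjusted p-values from 0.278 to 0.955 from limma. The last of these, the dimmest, ends in neither _x_at nor _s_at, and its means were under 6.

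JUNB, a JUN protein that often opposes JUN in cell growth, read 8.98, 9.05 and 8.95 on the vector control arrays and 8.94, 8.90 and 8.96 on the CRB3-expressing arrays. The groups overlapped, and the difference was -0.060 on the log2 scale (95% confidence interval -0.20 to 0.078, limma adjusted p = 0.691), within the fold threshold on either side. JUND, the most steadily expressed JUN protein, read 11.54, 11.51 and 11.73 on the vector control arrays and 11.74, 11.80 and 11.91 on the CRB3-expressing arrays in its brightest probe set. The lowest CRB3-expressing array lay just above the highest vector control array, and the log2 fold change of 0.22 (SE 0.081) had an adjusted p of 0.211 from limma. In its other 3 probe sets the groups overlapped, with differences from -0.11 to 0.053 on the log2 scale. No JUN family probe set was called.

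EGR1, the factor whose window held CArG boxes, was lower in CRB3-expressing cells. Its brightest probe set over the 6 arrays read 9.92, 9.89 and 10.09 on the vector control arrays and 9.56, 9.53 and 9.57 on the CRB3-expressing arrays. The groups were apart by more than the spread of either. At -0.42 on the log2 scale (SE 0.070, limma adjusted p = 0.0129), the level was 1.33-fold lower, which is under the fold threshold. Without CRB3-expressing replicate 1 or 2 the adjusted p was 0.0505 or 0.0591. A second probe set of nearly the same brightness read 10.04, 9.89 and 10.11 on the vector control arrays and 9.46, 9.49 and 9.54 on the CRB3-expressing arrays. Its log2 fold change was -0.52 (limma adjusted p = 0.00482), also under the threshold. The third and dimmest, at 6.26 in vector control cells, differed by -0.19 on the log2 scale, with overlapping groups and an adjusted p of 0.368 from limma.

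ATF3 was higher in CRB3-expressing cells, by an amount that depended on the probe set. The probe set 202672_s_at read 5.72, 5.71 and 5.76 on the vector control arrays and 6.74, 7.03 and 6.90 on the CRB3-expressing arrays. The groups did not overlap, and the SD was 0.025 on the vector control arrays and 0.145 on the CRB3-expressing arrays. This probe set was 2.24-fold higher, a log2 fold change of 1.16 (SE 0.080, 95% confidence interval 0.98 to 1.35, limma adjusted p = 7.21e-05). It was called with any 1 array left out. Because its vector control values are under 6, the size may be understated. The probe set 1554980_a_at, the brightest of ATF3 over the 6 arrays, read 6.53, 6.36 and 6.44 on the vector control arrays and 6.69, 6.78 and 6.79 on the CRB3-expressing arrays. Here too the groups did not overlap, but the difference was 0.31 on the log2 scale (SE 0.070, 95% confidence interval 0.15 to 0.47, limma adjusted p = 0.0467). With any 1 array left out its adjusted p missed the threshold (0.0551 to 0.153). The 95% intervals of these probe sets do not overlap, and the parts of the transcript that they read were not compared here. The third, 1554420_at, had means under 6 and a log2 fold change of -0.028 (limma adjusted p = 0.890). Averaged over the 3 probe sets the log2 fold change of ATF3 was 0.48 (limma adjusted p = 0.000852), under the fold threshold.

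**Figure D3:**
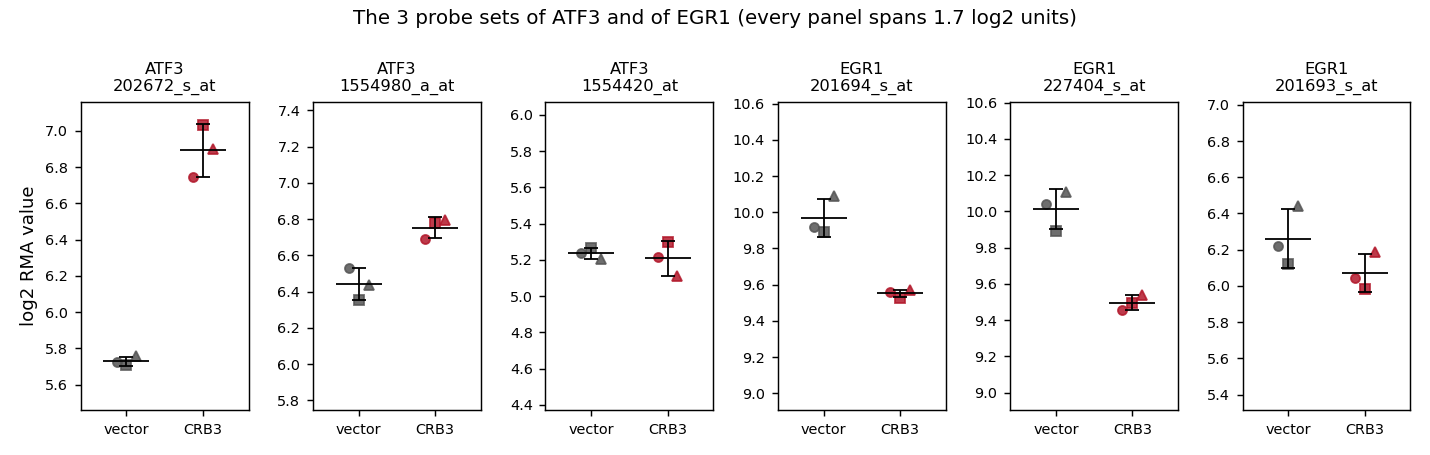
Log2 RMA value (y axis) of the 3 probe sets of ATF3 and the 3 of EGR1 by array, with vector control in grey and CRB3-expressing in red. Symbols are replicates 1 (circle), 2 (square) and 3 (triangle), bars are the mean and SD (n = 3), and all panels have the same height in log2 units. The group means of the called ATF3 probe set are 5.73 (vector control) and 6.89 (CRB3-expressing) and those of the brightest are 6.44 and 6.75, while the CRB3-expressing arrays lie lower by 0.42 and 0.52 in the brighter EGR1 panels.

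IER3, which protects cells from stress-induced death, was read by 1 probe set. It read 11.83, 11.96 and 11.85 on the vector control arrays and 11.56, 11.66 and 11.49 on the CRB3-expressing arrays. The groups did not overlap. The log2 fold change was -0.31 (SE 0.072, 95% confidence interval -0.47 to -0.15), with an adjusted p of 0.0532 from limma that misses the threshold.

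The genes whose pattern over the 6 arrays was most like that of FOS were found by centring each gene on its own mean and taking the root mean square difference from FOS on the log2 scale. Among 9702 genes with a mean of at least 7, they were RAB7B (0.073), CSF3 (0.077), DPYD (0.078), SERPINA1 (0.085) and FOXC2 (0.091), against a median of 0.45. Their log2 fold changes lay between -0.94 and -0.81. This likeness largely follows the difference between the groups, which all 5 share with FOS.

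Related genes were counted in lists, by the brightest probe set of each gene. The lists too were chosen with earlier results of these data known. Of 28 other immediate early genes, 5 were called higher and 0 lower, against 1.43% higher and 0.465% lower among all genes. KLF4, a zinc finger factor of epithelial differentiation, had log2 values of 7.60, 7.78 and 7.89 on the vector control arrays and 8.70, 8.73 and 8.51 on the CRB3-expressing arrays (log2 fold change 0.89, limma adjusted p = 0.000862). GADD45B, a growth arrest and stress protein, had a log2 fold change of 1.03 and PLK2, a stress-responsive kinase, one of 0.94. CCN1, a secreted matrix-associated protein, had 0.91 and RGS2, an inhibitor of G protein signalling, 0.88. In these 5 genes every CRB3-expressing array lay above every vector control array, as their being called makes likely. The groups did not overlap in 19 of the 28 genes. This compares with 26.6% of all genes and 38.3% of those with a mean log2 value of at least 7. The other probe sets of KLF4 (0.61), CCN1 (0.77) and GADD45B (0.89 and 0.88) were called too, except 1 of GADD45B (0.038). The log2 fold changes of this list ran from -0.39 to 1.03 with a median of 0.18, against 0.0066 over all genes.

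Factors and kinases that act with or above AP-1 held no called gene. Their counts at a p under 0.05 before adjustment stand against 10.4% higher and 8.39% lower among all genes. Of 25 AP-1 partner and related bZIP factors, 0 were called, with 4 higher and 4 lower at a limma p under 0.05 before adjustment. By the brightest probe sets, the smallest p-values were those of CREB3 (log2 fold change 0.40, limma adjusted p = 0.0242) and CEBPB (-0.26, limma adjusted p = 0.0604). Other probe sets of NFE2L1 (0.39 and 0.39, limma adjusted p = 0.00895 and 0.0110) had smaller p-values than CREB3. So did a BACH2 probe set with means under 6 (-0.46, limma adjusted p = 0.00586). All of these were under the fold threshold. The next list held the serum response factor, its partners and regulators, and the corepressors NAB1 and NAB2. Of its 10 genes, 0 were called and 0 had a limma p under 0.05 before adjustment. ELK4, an ETS partner of the serum response factor, had a log2 fold change of -0.16 and NAB2, a corepressor of EGR1, one of -0.13. Of 16 ERK and JNK pathway kinases, 0 were called, with 3 higher and 3 lower at a limma p under 0.05 before adjustment. RPS6KA5, a kinase that phosphorylates histone H3 at immediate early genes, differed by -0.40 on the log2 scale (limma adjusted p = 0.0186), and RPS6KA3 by -0.23 (limma adjusted p = 0.101). Of 11 heat shock and chaperone genes, which respond to stress in handling, 0 were called, with 2 higher and 0 lower at a limma p under 0.05 before adjustment. They were HSPB1 (log2 fold change 0.39, limma adjusted p = 0.00804) and DNAJB1 (0.30, limma adjusted p = 0.0664).

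Genes known as AP-1 targets moved in either direction. Of 22 measured, 4 were called higher and 2 lower, against 1.43% higher and 0.465% lower among all genes. Their median log2 fold change was 0.089. FST, the activin antagonist follistatin, read 6.92, 6.85 and 6.93 on the vector control arrays and 8.10, 7.88 and 8.14 on the CRB3-expressing arrays (log2 fold change 1.14, limma adjusted p = 8.03e-05). Its other probe sets had log2 fold changes of 2.34 and 0.59 and were also called. PLAUR, the urokinase receptor, had a log2 fold change of 0.70, and PTGS2 (2.83-fold) and CXCL8 (2.34-fold) were the other called rises. TIMP1, an inhibitor of matrix metalloproteinases, fell by 0.64 and DCN, the proteoglycan decorin, fell by 0.76 on the log2 scale. The brightest probe sets of CXCL8 and DCN, and that of KRT8 above, end in _x_at. Of the other DCN probe sets, 1 was lower (-0.81) and 5 were not called. Several of these genes answer to other factors as well, and which of them AP-1 controls in these cells was not measured.

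**Figure D4:**
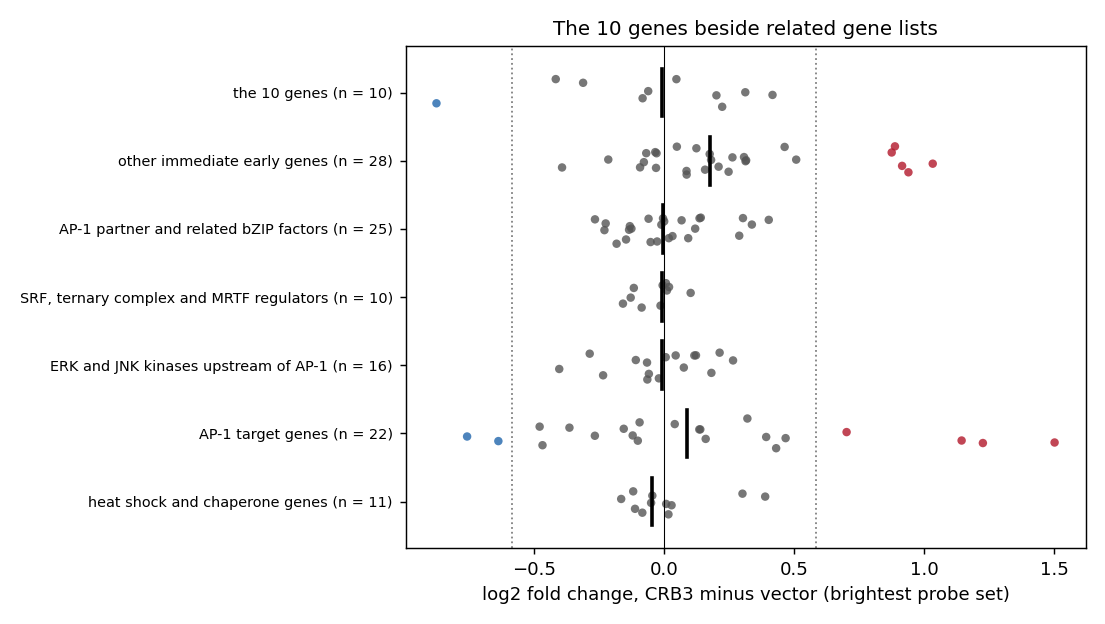
Log2 fold change (x axis, CRB3-expressing minus vector control, brightest probe set) of the 10 genes and of the measured members of 6 related lists (y axis). Points are genes, with called rises in red, called falls in blue and the rest in grey, black bars are medians, dotted lines mark the 1.5-fold threshold, and the vertical scatter within a list carries no value. FOS is the lowest of the 10 at -0.87, while 5 other immediate early genes lie at 0.88 to 1.03.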

How the data were processed

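Total RNA of 3 CRB3-expressing and 3 vector control samples of MCF-10A cells was hybridized to Affymetrix Human Genome U133 Plus arrays, 1 per sample. The authors corrected the background, normalized the arrays together and summarised probe sets with RMA in R, version not given in the sources used here, and deposited log2 values, which were used as they stand. RMA pulls dim probe sets together, so their differences may be understated, and 3 arrays per group limit the precision. Array medians lay between 5.84 and 5.88.

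Groups came from the sample titles. After 62 control probe sets were left out, lmFit and eBayes of limma 3.58.1 (R 4.3.3) were run on 54613 probe sets, p-values were adjusted over all of these by the Benjamini-Hochberg method, and the steps were tested on simulated data. The thresholds are those of the study's methods. Gene names came from the platform annotation, matched to RefSeq genes of GRCh38.p14 by Entrez identifier (0 symbols changed). Where a gene had several single-gene probe sets, the brightest over the 6 arrays stood for it in counts of genes. Some genes of the lists were not analysed here.

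The 10 genes and the lists were chosen with earlier results of these data known. All 10 genes were named, with up to 6 called genes per list (the 3 highest and 3 lowest), or the 2 with the smallest p where none was called, and the 5 genes most like each called member. Settings tried were the replicate block, other variance models, scalings, filters, array weights, thresholds, probe set rules and leaving out each array.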

Additional observations from a re-analysis of the deposited data

How the results depend on the processing

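FOS kept its direction under all 15 settings that refit it and its call under 14 of them. The exception was a plain variance per probe set without empirical Bayes (log2 fold change -0.87, adjusted p = 0.0602), where 0 of the 10 genes and 0 of the 24 probe sets were lower and 1 AP-1 target was lower. The called ATF3 probe set was called under all 13 of its settings, with log2 fold changes from 1.09 to 1.24. The adjusted p of the brightest ATF3 probe set ranged from 0.0159 to 0.153 and passed under 4 of 14 settings, and IER3 passed under 6 of 15 (0.00224 to 0.166). FOSL2 and EGR1 passed under 12 of 15 each, with adjusted p-values up to 0.0898 and 0.0923. Without vector control replicate 1 the log2 fold changes of FOS, EGR1 and FOSL2 were -0.88, -0.44 and 0.44. With no fold threshold, 4 probe sets of the 10 genes were higher and 3 lower, 2 genes were higher and 2 lower, and 1 other immediate early gene, 1 kinase and 5 AP-1 targets were lower, while 7 other immediate early genes, 1 bZIP factor, 8 AP-1 targets and 1 heat shock gene were higher. With a fold change above 2, or with limma's treat against a 1.5-fold change, 0 of the 10 genes, 0 of the 24 probe sets and 0 AP-1 targets were lower, and 1 other immediate early gene was higher. With the mean over probe sets, 1 AP-1 target was lower. Directions reversed only in probe sets near 0, all uncalled: 213281_at of JUN after median-centring (-0.0015), and, with 1 array left out in turn, 213281_at of JUN (-0.022 to 0.037), 203751_x_at (-0.067 to 0.12), 214326_x_at (-0.28 to 0.0064) and 229117_s_at (-0.079 to 0.0025) of JUND and 1554420_at of ATF3 (-0.074 to 0.022). The causes were not tested beyond what each setting removes.

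The sample titles number the replicates but do not say whether the numbers pair the samples. Same-numbered arrays had deviations that correlated at -0.085, 0.064 and 0.029 over probe sets. Differently numbered arrays of the 2 groups correlated between -0.19 and 0.16, and these values do not settle it. With the replicate block, FOS was still called (log2 fold change -0.87, adjusted p = 0.00186), 1 of the 10 genes was lower and 0 higher, and the brightest ATF3 probe set had an adjusted p of 0.108.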
